A study of Arabidopsis thaliana with 9 samples.

Results

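Rosette leaves of Arabidopsis thaliana, accession Col-0, were compared between plants exposed to a slow rise in salt and untreated plants, across all genes of the leaf with enough signal to test. The salt group, called Phase 1 by the study, was harvested 2 days after the nutrient solution had been brought to 90 mM NaCl in steps of 15 mM per day, and the Control group received no added salt. Each group held 3 libraries, so 6 of the series' 9 libraries entered the comparison. The remaining 3, called Phase 0, came from leaves taken 1 h after a single addition of salt to 105 mM and entered the same fit, so they share in the estimate of spread behind each p-value; their values and a few tests against them are given for orientation. All plants were labelled as 5 weeks old, shared the same Col-0 background with no transgene or mutation named, and grew in water culture with 13 h of light and 11 h of dark. The genes described are those whose normalised count averaged at least 10 over the 9 libraries, which was the case for 18650 of the 21176 genes in the deposited table, and 2526 genes were below that mean. The labels do not say whether replicates came from separate plants or pools, so the p-values measure the spread between these libraries, which may be technical. The time of day of each harvest is not in the labels either, and salt exposure and harvest occasion cannot be told apart in this design.

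Salt in the root medium first lowers the water potential around the root and later loads the shoot with sodium and chloride. Plants answer the first part with abscisic acid (ABA), which is perceived by PYR/PYL receptors that inhibit clade A protein phosphatases and so release SnRK2 kinases onto transcription factors such as the ABF family. Leaf growth slows, compatible solutes such as proline and raffinose sugars build up, and ions are moved into the vacuole. The leaf transcriptome also follows a daily cycle set by the circadian clock, with morning genes such as LHY and CCA1, and evening genes such as TOC1 and PRR5 that the morning factors repress.

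The normalised counts summed to between 25801397 and 27820610 in the Control libraries and to between 22786946 and 25522714 in Phase 1. Among the 7 of 9 libraries whose scaling could be read back from the low values, 19836334 to 27869310 reads lay behind these totals, and Phase 1 replicate 3 was one of those not settled. In a principal component analysis the leading axis (56.8% of the variance) placed the Phase 1 libraries at 65.9 to 88.1 and all others at -53.4 to -23.5. Control replicate 1 stood apart on the third component, at 61.2 against -33.7 and -11.5 for the other Control libraries. Leaf identity markers were present in every library: none of 5 mesophyll genes passed the test, and their summed normalised counts ranged from 1120350 to 1267960 in Control and from 907213 to 1082170 in Phase 1. Of 6 guard cell markers only the potassium channel gene KAT1 passed, and of 5 xylem markers none did. Summed phloem markers ranged from 5187 to 7271 in Control and from 4154 to 4664 in Phase 1, with SUC2 lower and APL higher, and TRY, a repressor of trichome fate, was the 1 trichome gene of 3 to pass and was higher. Of 6 root markers 2 were listed, with sums of 254 to 307 in Control and 351 to 403 in Phase 1. The 1 that was tested was higher (log2 0.44), and the root endodermal gene CASP1 averaged about 1 count. No seed marker of 4 was listed. In whole leaves, fewer cells of a type and less RNA per cell cannot be told apart.

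Of the 18650 genes, 6724 (36.1%) passed an adjusted p of 0.05 between Phase 1 and Control with limma on log2(normalised count + 1). Among them 3250 (17.4% of the tested genes) were higher in Phase 1 and 3474 (18.6%) were lower. A log2 difference of at least 1, a doubling, was reached by 1348 rises (7.23%) and 1398 falls (7.5%), and a difference of at least 3 by 145 rises and 129 falls. The 3 libraries of each group did not overlap in 8831 genes (47.4%). The median log2 difference over all tested genes was 0.00 and the middle 50% lay between -0.41 and 0.40, so the medians of gene groups given here are read against a value close to 0. Folds are powers of 2 of the fitted log2 difference, and SE is its standard error.

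**Figure D1:**
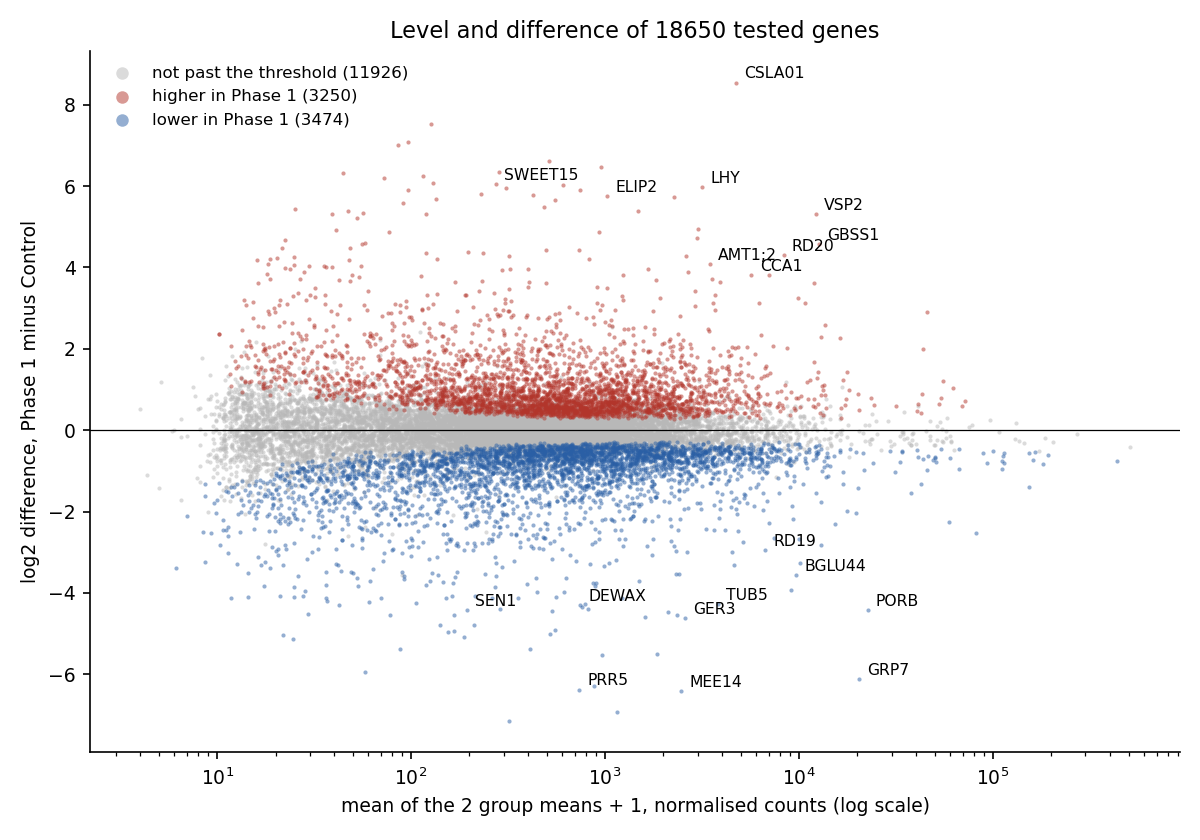
Log2 difference between Phase 1 and Control (y axis) against the mean level of the gene in normalised counts + 1 (x axis, log scale) for all 18650 tested genes. Red points are the 3250 higher genes, blue points the 3474 lower genes and grey points the genes that did not pass; both colours run through the whole range of levels.

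Genes were grouped into 50 lists by pathway, holding 688 tested loci, and the lists differed in how many members moved and in which direction. Late anthocyanin genes, clade A phosphatases and morning clock genes had positive medians and mostly higher calls. Evening clock genes, cold-response CBF and DREB2 factors, sugar-starvation genes and cell wall loosening genes had negative medians and mostly lower calls. Calvin cycle, autophagy, branched-chain amino acid, iron and salicylate lists consisted mainly of genes that did not pass. So did the tested genes as a whole, of which 36.1% passed.

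**Figure D2:**
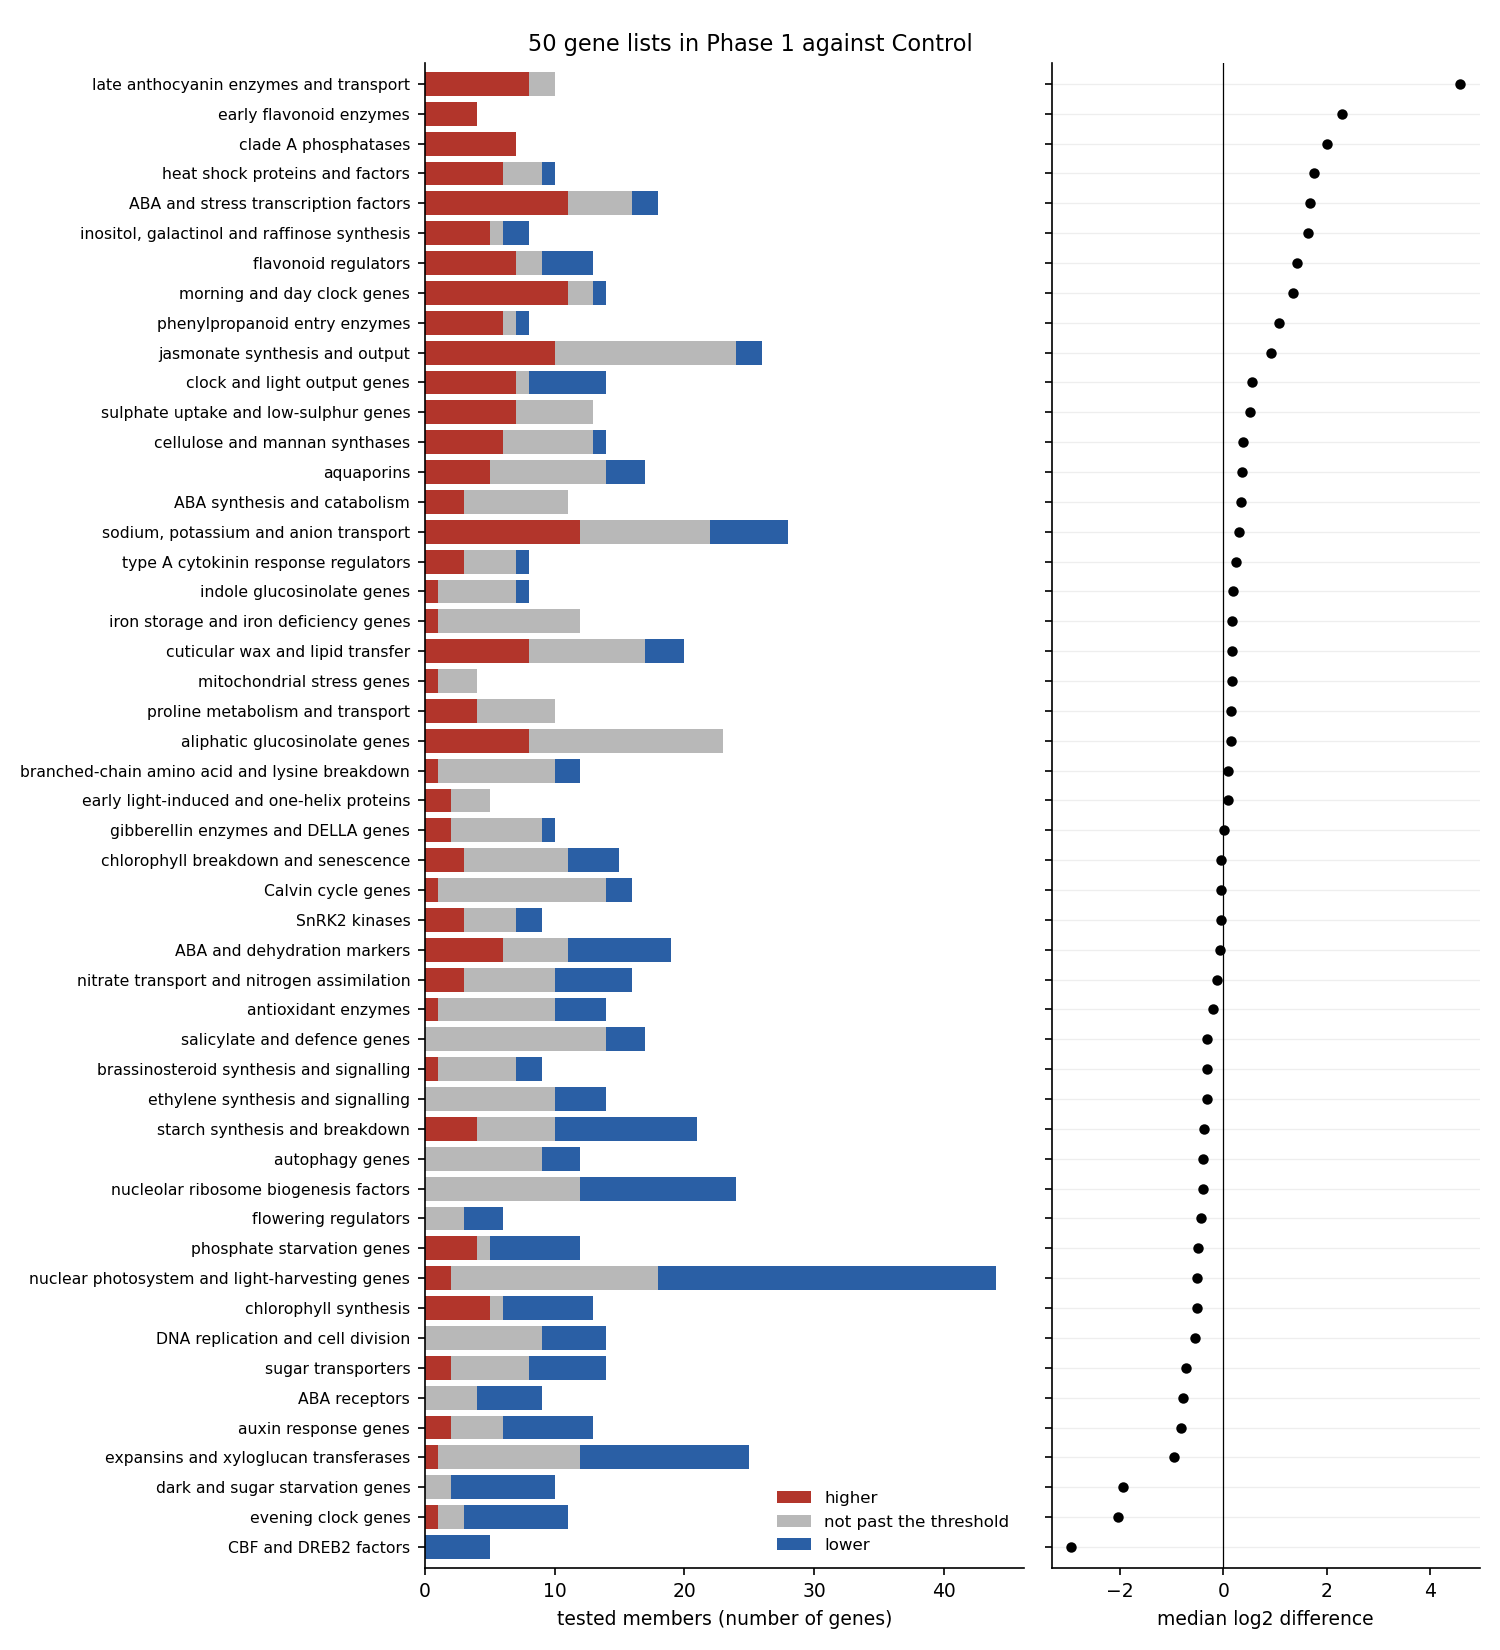
For each of 50 gene lists, the bars show how many tested members were higher, lower or not past the test in Phase 1 against Control, and the dots show the median log2 difference of the list. Late anthocyanin enzymes have the highest median, 4.58, and CBF and DREB2 factors the lowest, -2.94.

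The clock genes separated by the time of day at which they normally peak. Of 14 morning and day genes 11 were higher, RVE7 was lower (2 genes without Control replicate 1), and the median log2 difference was 1.34. Of 11 evening genes 8 were lower, the photoreceptor gene ZTL was higher, and the median was -2.04. LHY, a morning repressor of evening genes, rose 62.9-fold, from 100, 95 and 96 to 7626, 6097 and 5034, and its partner CCA1 rose 14.1-fold, from 604, 714 and 945 to 11430, 11906 and 8512. PRR5, an evening repressor of LHY and CCA1, read 1219, 1472 and 1646 normalised counts in Control replicates 1 to 3 and 24, 15 and 12 in Phase 1. The groups were far apart, and PRR5 fell 82.9-fold (log2 difference -6.37, SE 0.22, adjusted p = 1.73e-07). RVE8, a morning MYB factor that activates evening genes, stood at 284, 185 and 324 in Control and at 4199, 3296 and 2758 in Phase 1, a 13-fold rise (log2 3.70, SE 0.21, adjusted p = 2.54e-06). TOC1, a core evening repressor, fell less, from 937, 1086 and 1005 to 266, 288 and 191 (4.11-fold, adjusted p = 1.06e-05). PRR3, a relative of TOC1, fell 27.6-fold, from 469, 348 and 400 to 16, 22 and 7. ELF4, a part of the evening complex, went from 119, 78 and 76 to 11, 5 and 6 (11.3-fold lower, adjusted p = 3.34e-05), again with no overlap. The day gene PRR7 did not pass, at 5281, 9946 and 10217 in Control and 6582, 7751 and 6332 in Phase 1 (log2 -0.24, adjusted p = 0.435).

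Genes that act downstream of the clock moved in both directions, 7 higher and 6 lower of 14. GRP8, an RNA-binding protein gene with an evening peak, read 27059, 12138 and 16354 in Control and 1706, 1974 and 1814 in Phase 1 (9.58-fold lower, adjusted p = 8.81e-06). Its relative GRP7 fell 69.4-fold, from 56100, 31673 and 32319 to 516, 540 and 613. COL9, a CONSTANS-like gene, fell 10.7-fold from 102, 94 and 146 to 5, 10 and 17, whereas COL2 rose from 426, 321 and 518 to 1996, 2622 and 2475 (5.66-fold). The part of harvest time in these values was not tested. In the Phase 0 leaves PRR5 read 2362, 2035 and 2315 and RVE8 245, 232 and 233, so the shock libraries lay on the Control side of Phase 1 for both genes. FKF1, a blue-light receptor gene that marks the afternoon and evening, read 336, 390 and 361 in Control, 1453, 1302 and 1511 in Phase 0 and 10, 15 and 6 in Phase 1, so its lowest values were in Phase 1 and its highest in Phase 0.

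Evening genes are known to carry the evening element AAAATATCT, which the morning factors CCA1, LHY and RVE8 bind, in their promoters. It was looked for on both strands between 250 bases before and 50 bases after the annotated start in the RefSeq TAIR10.1 genome, with loci matched by identifier because the authors' files name TAIR10. It was present in 23.3% of the 129 genes that fell by at least 3 on the log2 scale, in 10.4% of the 1398 that fell by at least 1, in 2.52% of the 1348 that rose by at least 1, in 2.3% of the genes that did not pass and in 3.08% of all 18559 tested genes with a promoter. In the evening clock list 4 of 11 promoters held it. The 250 bases before the start are shown for 3 of these, as the members that fell and carry the element, 5′ to 3′ on the gene's own strand. Capitals mark the element, which in all 3 is read on the opposite strand. It lies 187 bases before the start in PRR5 (chr5:8358547-8358796, minus strand), 186 in FKF1 (chr1:25508389-25508638, plus strand) and 151 in TOC1 (chr5:24674713-24674962, plus strand).
PRR5: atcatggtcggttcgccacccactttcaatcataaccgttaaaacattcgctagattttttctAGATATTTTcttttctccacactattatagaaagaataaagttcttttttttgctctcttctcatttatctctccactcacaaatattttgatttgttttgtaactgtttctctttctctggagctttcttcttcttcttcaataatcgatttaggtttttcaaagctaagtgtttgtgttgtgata
FKF1: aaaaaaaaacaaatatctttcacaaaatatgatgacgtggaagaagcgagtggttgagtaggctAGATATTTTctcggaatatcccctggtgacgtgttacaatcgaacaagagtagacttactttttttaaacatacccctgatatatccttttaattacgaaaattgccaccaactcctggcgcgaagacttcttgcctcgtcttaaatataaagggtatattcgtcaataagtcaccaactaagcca
TOC1: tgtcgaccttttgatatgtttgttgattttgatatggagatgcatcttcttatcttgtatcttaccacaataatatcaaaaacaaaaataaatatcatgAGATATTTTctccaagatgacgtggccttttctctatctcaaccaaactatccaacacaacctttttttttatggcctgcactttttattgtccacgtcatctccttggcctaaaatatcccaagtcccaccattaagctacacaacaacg

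**Figure D3:**
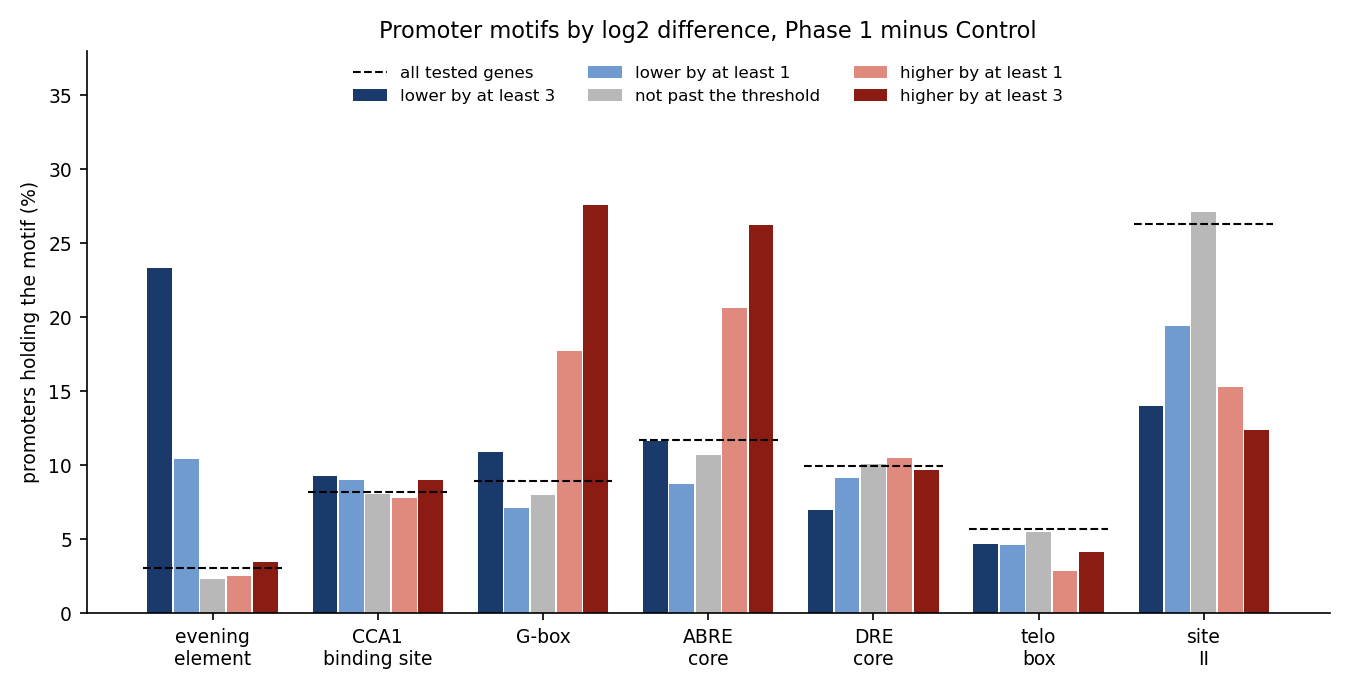
Percentage of promoters (250 bases before to 50 after the start) that hold each of 7 motifs, for genes that fell by at least 3 or at least 1 in log2, did not pass, or rose by at least 1 or at least 3; the classes at 1 include those at 3, and the dashed line is the share over all tested genes. The evening element is most frequent in the strongest falls, 23.3%, and the G-box in the strongest rises, 27.6%.

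Other motifs were spread differently. The G-box CACGTG, bound by bZIP and bHLH factors, was found in 27.6% of the promoters of genes that rose by at least 3, in 17.7% of those that rose by at least 1, in 7.08% of those that fell by at least 1 and in 8.96% of all tested genes. The ABA-responsive core ACGTGNC, which overlaps the G-box in its ACGTG, was found in 26.2%, 20.6%, 8.73% and 11.7% of the same classes. The CCA1 site AAAAATCT and the dehydration element, searched as GCCGAC and ACCGAC, kept close to their overall shares, with 9.3% and 6.98% in the genes that fell by at least 3 against 8.22% and 9.93% in all tested genes. These shares describe letters in a window and do not show binding.

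Genes of the light-harvesting apparatus were mostly lower. Of 44 nuclear genes of the photosystems and their antennae, 26 were lower, 2 were higher and 16 did not pass, with a median log2 difference of -0.50. LHCB1.4, one of several near-identical genes for the main chlorophyll-binding antenna protein, read 147996, 139465 and 130180 in Control, 108274, 83223 and 65637 in Phase 0 and 21036, 22685 and 28965 in Phase 1. The Phase 1 libraries lay below all others, and the gene fell 5.79-fold (log2 -2.53, SE 0.20, adjusted p = 1.22e-05). LHCB1.2 fell 2.63-fold, from 233758, 221783 and 211626 to 82639, 70971 and 103351 (adjusted p = 0.000159), while LHCB1.1 did not pass at a log2 difference of -0.32. Reads can be shared among these copies, so the split between them is uncertain. PSBQ2, a subunit of the oxygen-evolving complex, was 85906, 94862 and 79891 in Control and 53464, 31402 and 54395 in Phase 1 (log2 -0.94). LHCB7, a rare antenna protein gene, went the other way, from 625, 446 and 721 to 2832, 2093 and 1732 (3.71-fold higher, adjusted p = 0.000169), and LHCB4.3 was the other higher member (log2 0.61). Most of the falls were small: with quantile normalisation 12 of the 44 were lower, 3 were higher and the median was -0.16, and without replicate 1 of both groups 17 were lower. The count of higher members went from 2 to 1 without Control replicate 2, Phase 1 replicate 1 or Phase 1 replicate 3.

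Most carbon fixation genes did not pass, and the same was true of all tested genes, of which 36.1% passed. Of 16 Calvin cycle genes RBCS1B and TKL1 were lower and FBA1 was higher, and the list median was -0.05, or 0.12 with quantile normalisation. The Rubisco small subunit gene RBCS1A read 615259, 526941 and 603673 in Control and 470980, 399227 and 445390 in Phase 1. Those groups did not overlap, but the difference did not pass (log2 -0.41, adjusted p = 0.0974). RBCS1B, which shares much of its sequence with the other small subunit genes, fell from 65222, 48048 and 69112 to 28859, 31004 and 31856 (log2 -0.98). FBA1, a plastid aldolase gene, rose from 66891, 40976 and 56292 to 101380, 80500 and 86077 (log2 0.73).

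Chlorophyll synthesis genes changed in both directions. Of 13 genes 5 were higher and 7 were lower. GUN4, a regulator of the magnesium chelatase that starts the chlorophyll branch, read 180, 101 and 146 in Control and 304, 369 and 233 in Phase 1 (2.13-fold higher, adjusted p = 0.00626). At the light-dependent step further on, all 3 protochlorophyllide oxidoreductase genes fell. PORB, the main leaf form, went from 40741, 47976 and 40374 in Control to 1430, 1950 and 2856 in Phase 1. It fell 21.5-fold (log2 -4.42, SE 0.22, adjusted p = 1.08e-06), while the Phase 0 libraries, at 37844, 35723 and 29461, stood near the Control values. PORA, the form of etiolated seedlings, was low throughout and fell from 48, 162 and 59 to 8, 13 and 26 (5.2-fold, adjusted p = 0.00489). PORC, the form of high light, fell 1.73-fold from 12022, 10827 and 10653 to 6502, 5706 and 7205. The 5 higher members became 3 without Control replicate 1 or without Phase 1 replicate 1, 2 without Phase 1 replicate 3 and 1 without replicate 1 of both groups.

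The early light-induced proteins, which bind pigment and protect the photosystems during light stress, showed 2 of the clearest rises. ELIP2 read 30, 30 and 48 in Control, 23, 31 and 23 in Phase 0 and 2012, 2554 and 1458 in Phase 1 (54.2-fold higher than Control, log2 5.76, SE 0.26, adjusted p = 6.22e-07). ELIP1 rose 31-fold, from 147, 165 and 247 to 7474, 6035 and 4020. The other 3 members of the list, OHP, OHP2 and SEP1, did not pass, with log2 differences of 0.08, -0.25 and -0.26.

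The 3 catalase genes, whose enzymes break down hydrogen peroxide, parted. CAT2, the main form of photosynthetic leaf cells, stood at 19389, 15013 and 18101 in Control and at 79042, 58698 and 72161 in Phase 1. Every Phase 1 library exceeded every Control library, and CAT2 rose 3.99-fold (log2 2.00, SE 0.16, adjusted p = 1.67e-05). CAT3, a form with an evening peak that is abundant in vascular and ageing tissue, fell 4.79-fold, from 101708, 109982 and 80634 to 25487, 11871 and 27124 (adjusted p = 0.000245). CAT1 fell 3.52-fold, from 1506, 2207 and 1577 to 514, 356 and 656. For both CAT2 and CAT3 the Phase 0 libraries, at 14505, 14672 and 18593 and at 101147, 129572 and 97181, lay close to the Control values. Of the 14 antioxidant genes tested 1 was higher, 4 were lower and 9, among them APX1 (log2 0.77, adjusted p = 0.0612), did not pass. Among all tested genes 17.4% were higher and 18.6% were lower. Without Phase 1 replicate 2 the higher count of the list was 2.

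Starch genes also divided by enzyme. Of 21 genes of starch synthesis and breakdown, 4 were higher and 11 were lower (median -0.36). GBSS1, the granule-bound synthase that makes amylose, read 1253, 746 and 1003 in Control, 872, 1138 and 1320 in Phase 0 and 35863, 20287 and 17171 in Phase 1. It rose 23.7-fold over Control (log2 4.57, SE 0.28, adjusted p = 3.79e-06). The soluble synthase SS1 did not pass (log2 -0.04, adjusted p = 0.793). APL3, a large subunit of ADP-glucose pyrophosphorylase that sugar induces, rose 3.5-fold, from 1735, 1130 and 1059 to 6685, 4018 and 3324 (adjusted p = 0.000545).

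Genes for the nightly breakdown of starch made up most of the lower calls. DPE1, the plastid enzyme that rearranges short glucans, stood at 3139, 2563 and 2888 in Control and at 571, 637 and 631 in Phase 1. The groups were well apart, and DPE1 fell 4.65-fold (log2 -2.22, SE 0.12, adjusted p = 1.99e-06). PWD, which phosphorylates the granule surface ahead of breakdown, fell 3.46-fold, from 4025, 5167 and 4675 to 1453, 1364 and 1185 (adjusted p = 6.66e-06). Named after their values were seen, the phosphorylases PHS2 and PHS1, the debranching enzyme ISA3, the amylase AMY3 and the dikinase GWD1 were lower as well, with log2 differences between -1.55 and -1.16. BAM1, a stress-linked beta-amylase also named after the fact, was 3.07-fold higher. The main leaf beta-amylase BAM3 and the cytosolic DPE2 did not pass, at log2 differences of 0.32 (adjusted p = 0.198) and -0.13 (adjusted p = 0.522). Many of these transcripts cycle with the day in Arabidopsis leaves, and the part of harvest time in their values was not tested.

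**Figure D4:**
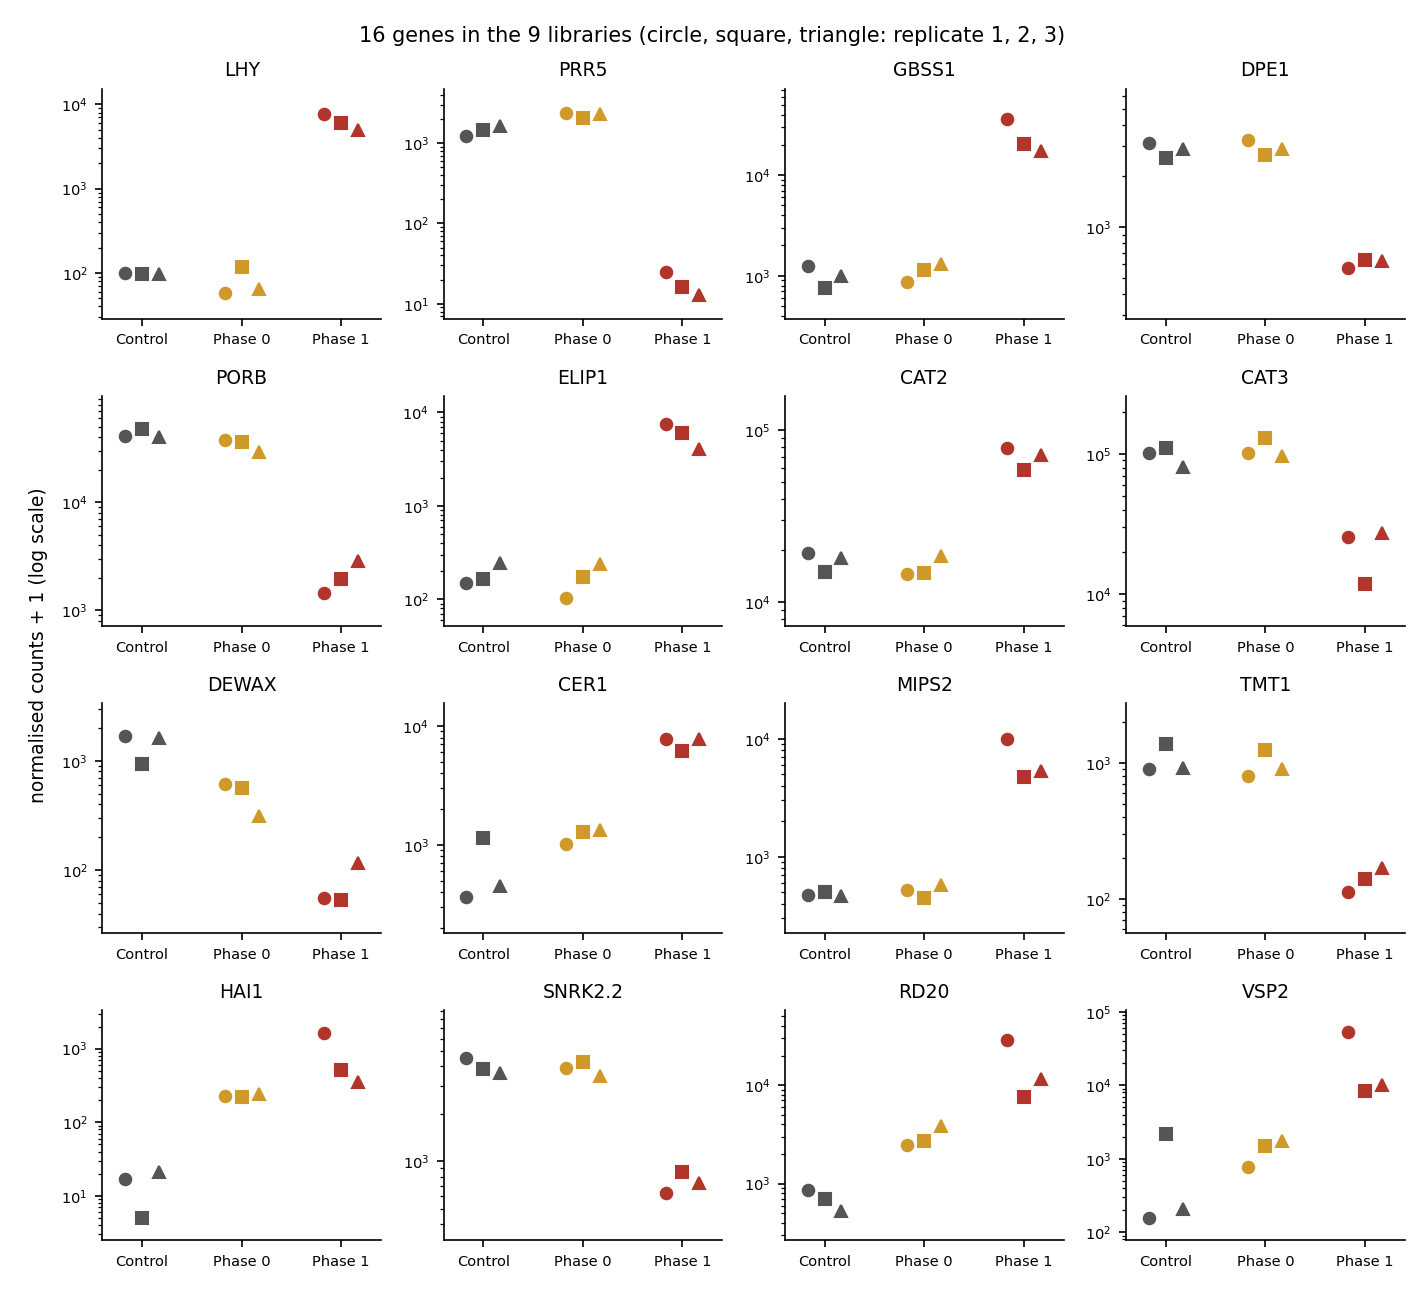
Normalised counts + 1 (y axis, log scale) of 16 genes in each library of Control, Phase 0 and Phase 1; circle, square and triangle are replicates 1, 2 and 3. PORB, PRR5 and DEWAX lie lowest in all 3 Phase 1 libraries and GBSS1, ELIP1 and LHY highest, while VSP2 ranges from 8292 to 52281 within Phase 1.

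Most genes of the dark and sugar-starvation list were lower. Of 10 dark and sugar-starvation genes 8 were lower, none was higher and the median log2 difference was -1.93. SEN1, a classical dark-induced gene, read 222, 277 and 604 in Control and 25, 4 and 29 in Phase 1 (21.3-fold lower, log2 -4.41, SE 0.76, adjusted p = 0.00145). DIN10, a raffinose synthase gene induced by darkness, fell 17.4-fold, from 361, 477 and 627 to 13, 35 and 40. The SnRK1 kinase subunit gene AKINBETA1 fell 4.76-fold, from 423, 463 and 475 to 77, 77 and 142. ASN1, the dark-induced asparagine synthetase, did not pass, at 53, 162 and 150 in Control and 47, 27 and 85 in Phase 1 (adjusted p = 0.142), and neither did DIN11. Autophagy genes mostly did not pass, with 3 of 12 lower beside 18.6% of all tested genes. ATG8E, the member with the largest difference, fell 4.7-fold from 535, 345 and 448 to 99, 56 and 140, and the number of lower genes was 1 without Phase 1 replicate 2 or without Phase 1 replicate 3. Of 12 branched-chain amino acid breakdown genes 9 did not pass, 1 was higher and 2 were lower, and 36.1% of all tested genes passed. The list's 1 rise was MGL, a methionine gamma-lyase, from 104, 224 and 179 to 2235, 1295 and 2091 (11.3-fold, adjusted p = 3.88e-05).

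Sugar carriers were lower in 6 of 14 cases and higher in 2. TMT1, which loads glucose and sucrose into the vacuole, read 899, 1369 and 924 in Control and 112, 139 and 169 in Phase 1 and fell 7.51-fold (adjusted p = 1.23e-05). Its close relative TMT2, named after its values were seen, rose from 1718, 2049 and 2143 to 3104, 3280 and 2837 (1.56-fold, adjusted p = 0.00364). The plasma membrane importers STP13 and STP1 fell 6.42-fold and 3.79-fold. SWEET12, which exports sucrose from leaf cells ahead of phloem loading, fell 6.79-fold, from 378, 237 and 277 to 60, 40 and 31. SWEET15, known as a senescence marker under the name SAG29, was counted in the senescence list and rose 66.2-fold, from 4, 7 and 11 to 752, 386 and 477 (log2 6.05, SE 0.53, adjusted p = 2.61e-05). That list showed no common direction, with 3 higher and 4 lower of 15 (median -0.05), beside 17.4% and 18.6% of all tested genes. NAC092, a NAC factor that promotes leaf ageing, fell from 73, 37 and 104 to 7, 5 and 13 (log2 -2.93), and the magnesium dechelatase gene SGR1 rose from 644, 300 and 503 to 1224, 1013 and 945 (adjusted p = 0.00425).

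The components of ABA perception moved in opposite directions. All 7 tested clade A phosphatases, the brakes on the pathway, were higher, with a median log2 difference of 2.01. Of 9 receptors 5 were lower and none was higher (median -0.79). Of 9 SnRK2 kinases 3 were higher, 2 were lower and 4 did not pass, beside 17.4% higher and 18.6% lower among all tested genes. HAI1 read 16, 4 and 20 in Control, 223, 218 and 238 in Phase 0 and 1656, 516 and 348 in Phase 1. It rose 55.1-fold over Control (log2 5.78, SE 0.60, adjusted p = 6.76e-05), but its difference from Phase 0 did not pass (adjusted p = 0.0771). HAB1 went from 291, 354 and 424 to 4575, 3175 and 2635 and rose 9.54-fold (adjusted p = 4.03e-06), and HAI2 and ABI2 rose 5.99-fold and 4.02-fold.

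Among the receptors PYL8 fell 2.89-fold, from 1973, 1184 and 1528 to 513, 504 and 572 (adjusted p = 0.000132). PYL4 fell 2.77-fold, from 1590, 826 and 1024 to 284, 513 and 433. PYL6 read 28, 23 and 48 in Control and 1, 2 and 4 in Phase 1 (log2 -3.38, adjusted p = 0.00198), and it was equally low in Phase 0, at 6, 1 and 5. PYL5 fell at an adjusted p of 0.0177, which was lost when Control replicate 1 (0.056), Control replicate 3 (0.0528) or Phase 1 replicate 1 (0.0555) was left out. The receptors PYR1, PYL1, PYL2 and PYL9 did not pass, with log2 differences between -0.26 and 0.27. With genes averaging at least 50, 3 receptors were lower.

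Of the 3 kinases that ABA activates most strongly, SNRK2.2 fell 5.44-fold, from 4528, 3864 and 3604 to 631, 855 and 725 (log2 -2.44, SE 0.14, adjusted p = 3.26e-06), with Phase 0 at 3896, 4272 and 3462. SNRK2.3 fell 3.3-fold, from 989, 896 and 925 to 229, 296 and 333. The guard cell kinase gene OST1, named after its values were seen, rose slightly, from 416, 351 and 327 to 515, 494 and 511 (log2 0.48, adjusted p = 0.0194). SNRK2.8, a kinase that ABA activates weakly, rose 2.76-fold, from 829, 322 and 543 to 1248, 1691 and 1447. The count of higher kinases was 1 without Phase 1 replicate 1.

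Transcription factors of the ABA and dehydration response were higher in 11 of 18 cases and lower in 2 (median 1.67). AFP1, a negative regulator that binds ABI5, rose 15.5-fold, from 45, 37 and 31 to 1549, 406 and 331 (adjusted p = 0.00016). HB-12, a homeodomain factor that restrains growth, rose 7.81-fold, from 268, 198 and 257 to 3115, 1483 and 1421. The ABF factors differed. ABF3, named after its values were seen, rose 5.4-fold, from 1104, 930 and 1128 to 7298, 5945 and 4204. ABF1 fell 5.49-fold, from 1233, 972 and 1117 to 196, 220 and 185 (adjusted p = 4.14e-06), and ABF4 did not pass. The count of lower factors, ABF1 and AFP2, was 1 without Control replicate 1 or 3 or without Phase 1 replicate 2 or 3. Of 11 genes of ABA synthesis and breakdown 3 passed, all higher, beside 17.4% higher and 18.6% lower among all tested genes. The zeaxanthin epoxidase gene ABA1 rose from 8412, 10228 and 8760 to 18765, 14359 and 17374 (log2 0.88). The final oxidase gene AAO3 rose from 480, 857 and 646 to 1273, 1212 and 1264 (log2 0.96). BGLU18, which releases ABA from its glucose ester, rose at an adjusted p of 0.0263 that became 0.08 without Control replicate 3. NCED3, the rate-limiting step under drought, did not pass, at 106, 159 and 115 in Control and 277, 109 and 190 in Phase 1 (adjusted p = 0.193).

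The classical dehydration markers did not move together: 6 of 19 were higher, 8 were lower and the median log2 difference was -0.06, or 0.06 with quantile normalisation. RD20, a caleosin gene, rose 19.8-fold, from 860, 703 and 533 to 28749, 7515 and 11575 (log2 4.31, SE 0.40, adjusted p = 3.82e-05). RD29B rose 4.43-fold, from 32, 25 and 11 to 110, 95 and 83. RD19, a cysteine protease gene, fell 7.68-fold, from 16028, 10171 and 9413 to 1625, 1271 and 1635 (adjusted p = 6.06e-06). RD29A and the dehydrin gene COR47, both named after their values were seen, also fell, and both were highest after the shock. RD29A read 8023, 12369 and 6356 in Control, 30603, 34821 and 32164 in Phase 0 and 4478, 4848 and 2586 in Phase 1. RAB18, often used as an ABA marker, read 827, 527 and 425 in Control and 881, 512 and 833 in Phase 1 and did not pass (adjusted p = 0.362). Without Control replicate 3 the number of higher markers was 3. All 5 tested CBF and DREB2 factors, which bind the dehydration element, were lower (median -2.94), with Control replicate 1 far above the other Control libraries for CBF2 at 506 against 105 and 94.

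Genes that make inositol, galactinol and raffinose, which serve as compatible solutes, were mostly higher, with 5 higher and 2 lower of 8 (median 1.64). MIPS2, a synthase of inositol phosphate, stood at 476, 497 and 467 in Control, 523, 450 and 575 in Phase 0 and 9992, 4721 and 5295 in Phase 1. It rose 13.1-fold over Control (log2 3.71, SE 0.24, adjusted p = 4.54e-06). MIPS1 rose 5.98-fold, from 3458, 4431 and 3890 to 23324, 21895 and 24979. MIPS3, named after its values were seen, fell from 813, 665 and 559 to 243, 145 and 216 (log2 -1.77). GOLS1, a galactinol synthase, rose 10.1-fold, from 587, 518 and 411 to 14657, 2925 and 2999, with replicate 1 well above the others. GOLS3 did not pass (adjusted p = 0.0892), at 629, 933 and 631 in Control and 70, 901 and 193 in Phase 1.

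Proline genes were higher in 4 of 10 cases and lower in none. P5CS1, the stress-inducible first enzyme, read 4501, 5730 and 6206 in Control, 15210, 15057 and 14922 in Phase 0 and 26443, 11580 and 17308 in Phase 1. It rose 3.21-fold over Control (adjusted p = 0.000597) and did not differ from Phase 0 beyond the test (log2 0.21, adjusted p = 0.569). The proline transporter gene PROT3 rose 10-fold, from 19, 44 and 35 to 551, 305 and 193 (adjusted p = 0.000154). ERD5, a dehydrogenase gene for proline breakdown, did not pass, at 91, 136 and 169 in Control and 68, 129 and 90 in Phase 1 (adjusted p = 0.242). AT5G38710, another of the 4 higher members, rose from 114, 43 and 62 to 146, 160 and 122 (log2 1.06, adjusted p = 0.0252). That call was lost without Control replicate 2 or 3 and without Phase 1 replicate 1 or 2. Without Phase 1 replicate 1 the number of higher genes was 2.

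Ion transport genes were higher in 12 of 28 cases and lower in 6 (median 0.31). NHX2, a vacuolar exchanger of sodium and potassium for protons, stood at 883, 1398 and 1058 in Control, 2459, 2011 and 2480 in Phase 0 and 3751, 4006 and 3629 in Phase 1, a 3.47-fold rise over Control (log2 1.79, SE 0.16, adjusted p = 3.3e-05). SKOR, an outward potassium channel of the vasculature, rose 3.56-fold at a low level, from 16, 12 and 18 to 51, 61 and 58. SOS3, the calcium sensor of the salt-overly-sensitive pathway, fell 2.99-fold, from 77, 43 and 73 to 17, 21 and 23 (adjusted p = 0.00203). The kinase gene SOS2 did not pass (log2 0.12, adjusted p = 0.539), and neither did the sodium carrier gene HKT1, at 5, 11 and 11 in Control and 12, 16 and 24 in Phase 1 (adjusted p = 0.141). CLC-A, which loads nitrate into the vacuole, fell 2.75-fold, from 1535, 1563 and 1243 to 492, 393 and 735. Without replicate 1 of both groups 7 of the list were higher.

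Of 17 aquaporin genes, which encode water channels, 5 were higher and 3 were lower, beside 17.4% and 18.6% of all tested genes. PIP2;3, which is nearly identical to PIP2;2 and therefore uncertain, read 186, 161 and 152 in Control and 1600, 917 and 1260 in Phase 1 (7.37-fold higher, adjusted p = 1.19e-05). PIP2;1 rose 2-fold, from 13339, 11223 and 11192 to 28522, 17388 and 26904. The tonoplast channel gene TIP2;1 fell 2.05-fold, from 4466, 5442 and 5412 to 1664, 2463 and 3728, and PIP1;5 fell from 2115, 2582 and 2119 to 968, 914 and 1473 (log2 -1.05). With quantile normalisation 8 aquaporin genes were higher.

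Among genes that loosen the cell wall, those that passed were nearly all lower. Of 25 expansin and xyloglucan transferase genes 13 were lower, 1 was higher and the median was -0.96. EXPA8 read 3610, 2392 and 2784 in Control, 1240, 675 and 594 in Phase 0 and 177, 442 and 1198 in Phase 1, a 6.34-fold fall from Control (log2 -2.66, SE 0.55, adjusted p = 0.00412). XTH33 was 40, 53 and 31 in Control and 0, 0 and 1 in Phase 1. The touch-inducible TCH4 fell 4.5-fold, from 788, 845 and 222 to 87, 125 and 146. The 1 higher gene was EXPA10, which rose 4.1-fold, from 222, 353 and 314 to 1423, 1187 and 1010 (adjusted p = 0.000126). Without Phase 1 replicate 1 the list had 10 lower and 2 higher genes and a median of -0.57.

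Among 14 cellulose and mannan synthase genes 6 were higher and 1 was lower. The 3 primary wall synthases CESA1, CESA3 and CESA6 did not pass (log2 0.13, -0.17 and 0.32), and neither did the secondary wall synthases CESA4, CESA7 and CESA8. The rises were in the mannan synthase family, with CSLA01 at 12, 32 and 20 in Control and 17626, 6515 and 4073 in Phase 1 (373-fold, log2 8.54, SE 0.56, adjusted p = 5.1e-06). CSLA15 rose from 90, 200 and 281 to 2042, 538 and 606 (log2 2.34), and CSLA14 fell from 33, 25 and 27 to 8, 9 and 12. The tubulin gene TUB5 was among the largest falls of abundant genes and went from 7958, 7148 and 6590 to 228, 431 and 527 (19.3-fold, adjusted p = 3.76e-06).

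Cuticle genes included some of the largest rises and 1 of the largest falls. Of 20 genes for wax synthesis and lipid transfer 8 were higher and 3 were lower, with a median of 0.16 that turned to -0.04 without Phase 1 replicate 1, and 5 were lower without Control replicate 1. WSD1, which joins fatty acids and alcohols into wax esters, read 13, 32 and 17 in Control, 96, 185 and 198 in Phase 0 and 1554, 805 and 868 in Phase 1. It rose 50.8-fold over Control (log2 5.67, SE 0.38, adjusted p = 5.79e-06). CER1, needed for wax alkanes and named after its values were seen, rose 12.6-fold, from 362, 1134 and 446 to 7768, 6133 and 7713. DEWAX, a transcription factor that represses CER1 and other wax genes in the dark, went from 1684, 934 and 1625 in Control through 610, 563 and 310 in Phase 0 to 55, 52 and 114 in Phase 1. Its 19.6-fold fall (log2 -4.29, SE 0.36, adjusted p = 1.89e-05) was thus opposite in sign to the change of CER1. The wax activator gene MYB96 did not pass, at 448, 473 and 354 in Control and 502, 344 and 355 in Phase 1 (adjusted p = 0.699). The neighbouring lipid transfer protein genes LTP3 and LTP4, whose reads may be split uncertainly, read 61, 17 and 9 and 7, 0 and 2 in Control and 2257, 1248 and 845 and 223, 250 and 89 in Phase 1.

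Flavonoid pathway genes were mostly higher, with larger log2 differences at later steps, where several genes had only a few counts in Control. Of 8 phenylpropanoid entry genes 6 were higher (median 1.07), all 4 early flavonoid genes were higher (log2 1.94 to 3.14), and 8 of 10 late anthocyanin genes were higher (median 4.58). Chalcone synthase, CHS, opens the flavonoid branch and went from 403, 773 and 1200 to 7466, 6500 and 5246 (8.79-fold higher, adjusted p = 0.000107). DFR, the first enzyme committed to anthocyanin, stood at 8, 2 and 5 in Control, 9, 10 and 30 in Phase 0 and 1124, 293 and 258 in Phase 1 (log2 6.34, SE 0.64, adjusted p = 6.01e-05). UGT79B1, which adds xylose to anthocyanin, read 0, 2 and 4 in Control and 434, 119 and 127 in Phase 1 (log2 6.25). LDOX, the next enzyme after DFR, rose from 8, 5 and 4 to 886, 280 and 185, and GSTF12, needed to carry anthocyanin to the vacuole, from 15, 4 and 7 to 1058, 466 and 305. AT5MAT, a malonyltransferase, read 1, 0 and 1 in Control and 280, 79 and 70 in Phase 1. SCPL10, an acyltransferase that attaches sinapoyl groups, had more signal in Control, at 271, 330 and 428, and rose 5.19-fold to 1993, 1542 and 1755. In the entry list PAL3 was lower (log2 -1.22) and PAL2 did not pass.

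Regulators of the pathway were higher in 7 of 13 cases and lower in 4, and with genes averaging at least 50 only 2 were higher. PAP1, a MYB activator of anthocyanin genes, rose 18.5-fold, from 63, 82 and 59 to 3141, 897 and 716 (adjusted p = 0.000108). Its partners GL3 and TT8 went from 0, 0 and 0 to 82, 43 and 21 and from 0, 4 and 2 to 179, 80 and 67. MYBL2, a repressor of the same complex and named after its values were seen, fell 4.34-fold, from 2351, 2054 and 2375 to 529, 376 and 700.

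In the late anthocyanin list 3 of 10 promoters held the G-box. They are shown because they belong to the list with the highest median, with the G-box in capitals. It lies 14 bases before the start in DFR (chr5:17166033-17166282, minus strand) and 36 in SCPL10 (chr2:9791916-9792165, plus strand). UGT79B1 (chr5:21938397-21938646, minus strand) has it at 171 and at 128 bases.
DFR: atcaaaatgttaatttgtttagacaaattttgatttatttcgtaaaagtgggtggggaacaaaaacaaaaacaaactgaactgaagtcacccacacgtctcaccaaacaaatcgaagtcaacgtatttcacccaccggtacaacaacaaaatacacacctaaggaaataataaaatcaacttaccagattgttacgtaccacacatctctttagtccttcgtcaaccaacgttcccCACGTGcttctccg
UGT79B1: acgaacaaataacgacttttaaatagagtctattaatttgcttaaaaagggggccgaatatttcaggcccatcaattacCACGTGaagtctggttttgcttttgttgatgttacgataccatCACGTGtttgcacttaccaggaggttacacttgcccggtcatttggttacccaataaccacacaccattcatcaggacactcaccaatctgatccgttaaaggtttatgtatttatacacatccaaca
SCPL10: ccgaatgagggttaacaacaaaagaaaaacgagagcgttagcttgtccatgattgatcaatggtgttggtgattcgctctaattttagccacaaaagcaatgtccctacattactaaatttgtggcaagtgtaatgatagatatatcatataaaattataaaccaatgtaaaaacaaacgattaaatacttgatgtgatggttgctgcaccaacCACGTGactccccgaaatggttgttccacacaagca
The share with a G-box was 71.4% among the 14 morning clock genes, 10 of which held one, and 31.8% among the photosystem genes, most of which were lower, so the letters were found in groups of both directions.

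Ribosome production genes were lower by modest amounts. Of 24 nucleolar factors 12 were lower, none was higher and the median log2 difference was -0.40. FIB2, a fibrillarin that methylates ribosomal RNA, read 855, 639 and 895 in Control, 374, 498 and 479 in Phase 0 and 281, 223 and 201 in Phase 1, a 3.38-fold fall (adjusted p = 7.73e-05). The nucleolin gene NUC-L1 fell 2.02-fold, from 8581, 6805 and 7903 to 3873, 3992 and 3601 (adjusted p = 0.000177). The unnamed locus AT5G27120 fell 2.26-fold, from 1104, 909 and 1099 to 429, 530 and 418. FIB1, the other fibrillarin gene, did not pass, at 2655, 2355 and 2678 in Control and 2197, 2496 and 2219 in Phase 1 (adjusted p = 0.305).

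Promoters of this list shared short motifs known from ribosomal genes. The telo box AAACCCTA was found in 13 of 24 (54.2%), against 5.66% of all tested genes, and the site II element, searched as TGGGCC and TGGGCT, in 20 of 24 (83.3%), against 26.3%. Over all genes both were less frequent among those that changed by at least 1 on the log2 scale, with site II in 19.4% of the falls, 15.3% of the rises and 27.1% of the genes that did not pass. The promoters of 3 lower members are shown with the telo box in capitals: AT5G27120 (chr5:9540611-9540860, plus strand, 44 bases before the start), NOP56 (chr1:20986953-20987202, minus strand, 17 bases) and AT2G40360 (chr2:16856772-16857021, minus strand, 36 bases). NOP56, a core protein of the methylation particles, fell 1.48-fold, from 2614, 1994 and 2607 to 1672, 1885 and 1339 (adjusted p = 0.0157), and AT2G40360 fell 1.27-fold (adjusted p = 0.0384). AT2G40360 was named after its values were seen, as was NOP56.
AT5G27120: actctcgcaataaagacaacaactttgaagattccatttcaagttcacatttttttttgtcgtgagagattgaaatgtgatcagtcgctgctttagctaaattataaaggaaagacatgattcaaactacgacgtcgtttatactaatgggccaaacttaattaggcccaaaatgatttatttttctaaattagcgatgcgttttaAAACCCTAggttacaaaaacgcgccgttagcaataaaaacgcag
NOP56: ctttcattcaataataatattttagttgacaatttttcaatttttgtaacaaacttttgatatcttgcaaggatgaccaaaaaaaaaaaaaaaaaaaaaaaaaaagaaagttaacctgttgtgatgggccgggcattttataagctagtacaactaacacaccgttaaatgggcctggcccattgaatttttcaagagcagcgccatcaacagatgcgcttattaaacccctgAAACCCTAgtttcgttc
AT2G40360: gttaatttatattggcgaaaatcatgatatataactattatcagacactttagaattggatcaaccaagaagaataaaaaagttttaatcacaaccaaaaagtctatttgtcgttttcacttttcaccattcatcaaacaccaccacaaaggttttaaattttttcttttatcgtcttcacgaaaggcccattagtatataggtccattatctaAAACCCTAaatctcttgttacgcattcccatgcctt

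Among hormone genes the auxin list had the most falls. Of 13 auxin-response genes 7 were lower and 2 were higher (median -0.81), and the higher count was 1 without Control replicate 1 or 3, without Phase 1 replicate 1 or 3, without any single Phase 0 library and with a replicate block. IAA19, an early auxin-induced repressor, stood at 562, 612 and 491 in Control, 243, 190 and 190 in Phase 0 and 77, 94 and 114 in Phase 1 (5.84-fold lower than Control, adjusted p = 7.94e-06). GH3.3, which conjugates auxin to amino acids, fell 8.52-fold, from 210, 174 and 149 to 27, 19 and 15. RGL2, a DELLA growth repressor, rose 4.02-fold, from 169, 219 and 162 to 788, 703 and 710 (adjusted p = 1.83e-05). In its list 7 of 10 gibberellin genes did not pass, and 36.1% of all tested genes passed. Of 14 ethylene genes 4 passed, all lower, beside 17.4% higher and 18.6% lower among all tested genes. The synthase gene ACS8 went from 171, 160 and 157 to 20, 20 and 34. ARR15, a cytokinin-induced regulator, rose from 63, 89 and 142 to 316, 474 and 711 (log2 2.34), and 4 of the 8 genes of its type did not pass. DNA replication and cell division genes were lower in 5 of 14 cases, beside 18.6% of all tested genes. That count was 10 without Control replicate 1 and 3 without Control replicate 2 or without Phase 1 replicate 1. PCNA1, the sliding clamp of DNA polymerase, fell from 238, 357 and 239 to 86, 118 and 100 (log2 -1.43).

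Nutrient genes had no common direction. AMT1;2, an ammonium transporter among the largest rises of abundant genes, went from 701, 210 and 379 to 7368, 6642 and 5519 (16.9-fold, adjusted p = 2.28e-05). In the nitrogen list 3 of 16 were higher and 6 lower, beside 17.4% and 18.6% of all tested genes. GDH1, a glutamate dehydrogenase, fell from 1557, 1277 and 1138 to 390, 306 and 524, and NRT1.5, a nitrate carrier of the xylem, rose from 900, 345 and 507 to 1070, 1778 and 1267 (log2 1.31). Sulphur genes were higher in 7 of 13 cases, led by the low-sulphur marker SDI1, which rose 8.97-fold from 91, 40 and 60 to 929, 407 and 436. That count was 3 without Control replicate 3 and 4 without Phase 1 replicate 1 or 3. Phosphate starvation genes were lower in 7 of 12 cases and higher in 4, and the higher count was 2 without Control replicate 1 or 3 and 1 without Phase 1 replicate 1 or 2. SPX1, an intracellular phosphate sensor, fell from 1800, 1069 and 1257 to 385, 394 and 414 (log2 -1.75). Of 10 heat shock genes 6 were higher and 1 was lower (median 1.75). The lower call was lost without Control replicate 3 and without replicate 1 of both groups. The cytosolic chaperone HSP70 rose 8.79-fold, from 373, 148 and 107 to 1540, 1700 and 1557, and its regulator HSFA2 rose from 151, 100 and 33 to 464, 679 and 533 (log2 2.78). The Phase 0 values of HSFA2, at 124, 394 and 467, overlapped both groups, and the difference between Phase 1 and Phase 0 did not pass (adjusted p = 0.241).

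Glucosinolate genes, which make the sulphur-rich defence compounds of this family, mostly did not pass. The same was true of all tested genes, of which 36.1% passed and 17.4% were higher. Of 23 aliphatic genes 8 were higher and none was lower, a count that was 4 without Control replicate 3 or without Phase 1 replicate 1. FMOGS-OX2, an oxygenase of side chains, rose from 42, 89 and 90 to 1373, 561 and 829 (12.2-fold, adjusted p = 5.88e-05). The regulators of the indole branch differed, since MYB34 rose from 554, 556 and 765 to 2023, 1267 and 1270 and MYB51 fell from 430, 316 and 265 to 95, 129 and 89, while the other 6 genes of that list did not pass; 2 were higher without Control replicate 1. Of 9 brassinosteroid genes 6 did not pass, beside the 36.1% of all tested genes that passed. Of 6 flowering regulators 3 were lower, beside 18.6% of all tested genes. Among these 3 was TEM2, a repressor of flowering, from 697, 493 and 403 to 99, 124 and 195.

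Some of the largest changes lay outside every list. FH3, a formin that nucleates actin filaments, read 9, 18 and 17 in Control, 77, 65 and 103 in Phase 0 and 2257, 535 and 789 in Phase 1, a 65.4-fold rise over Control (log2 6.03, SE 0.47, adjusted p = 1.22e-05). NUDT24, a nudix hydrolase, read 3, 44 and 18 in Control and 3961, 511 and 1190 in Phase 1. Both were thus highest in Phase 1 replicate 1. Among the falls, MEE14, a gene named for an embryo arrest phenotype, went from 6124, 4183 and 4372 to 60, 41 and 70 (85.1-fold, adjusted p = 1.73e-07), and WCRKC1, a thioredoxin gene, from 2066, 1742 and 1876 to 24, 40 and 66 (46.2-fold). Phase 0 stayed near Control for both, at 5540, 5040 and 3762 and at 1880, 1877 and 1797. GER3, a germin-like protein of the cell wall, went from 3500, 5108 and 6117 to 50, 305 and 470 (24.6-fold, adjusted p = 0.000395), and KCS8, a fatty acid elongase gene, from 292, 362 and 289 to 5, 13 and 28 (23.3-fold). ADS1, a fatty acid desaturase gene, went from 163, 448 and 181 to 4, 2 and 41. The defensin-like gene LCR69 fell 20.4-fold, from 1170, 1990 and 1209 to 78, 56 and 73, with Phase 0 at 1870, 1480 and 1729. For the factor gene BZIP61 the shock libraries were already low, at 167, 76 and 87 against 640, 1371 and 993 in Control and 6, 49 and 74 in Phase 1, and its difference between Phase 1 and Phase 0 did not pass (adjusted p = 0.0907). Among abundant genes BGLU44, a beta-glucosidase, fell 11.8-fold, from 18108, 19995 and 15529 to 1336, 1363 and 1878 (log2 -3.56, SE 0.16, adjusted p = 7.17e-07). PATL1, a lipid-binding protein of the dividing cell plate, and PCAP1, a plasma membrane protein that binds calcium and microtubules, fell 9.88-fold and 7.96-fold. PCAP1 stood at 9453, 7024 and 7603 in Control, 2661, 3089 and 2050 in Phase 0 and 724, 1402 and 982 in Phase 1, so Phase 0 lay between the other groups.

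The Phase 1 libraries differed among themselves, and replicate 1 was most often the furthest from Control. Among the 1348 genes that rose by at least 1 on the log2 scale, the furthest library was replicate 1 in 805 (59.7%), replicate 2 in 407 (30.2%) and replicate 3 in 136 (10.1%). Among the 1398 that fell by as much it was replicate 1 in 715 (51.1%), replicate 2 in 396 (28.3%) and replicate 3 in 287 (20.5%). Over all tested genes, the highest of the 3 was replicate 1 in 33.2%, replicate 2 in 36.9% and replicate 3 in 30% of cases. The highest library is another measure than the furthest from Control, which was not counted over all tested genes. A single library at least 4-fold above both others of its group, counting values over 100, was replicate 1 for 48 genes in Phase 1 and for 51 in Control. For replicates 2 and 3 these counts were 12 and 1 in Phase 1 and 1 and 0 in Control. A library at least 4-fold below both others was replicate 1, 2 or 3 for 1, 3 and 10 genes in Phase 1. In Control the low counts were 5, 5 and 1.

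Jasmonate genes were among those that parted by library. All 26 tested genes of jasmonate synthesis and response were highest in Phase 1 replicate 1, whose median log2 difference from the Control mean was 1.98, against 0.39 and 0.18 in replicates 2 and 3. In the test 10 were higher and 2 lower. The higher count was 6 without Control replicate 3, and the lower count was 1 without Control replicate 1 or 2 or without Phase 1 replicate 2 or 3. VSP2, a storage protein gene that jasmonate induces, read 155, 2179 and 206 in Control and 52281, 8292 and 10021 in Phase 1 (39.5-fold higher, adjusted p = 0.00175), and its near copy VSP1 30, 120 and 18 and 11528, 825 and 1101. LOX2, the first enzyme of the pathway, read 32321, 31070 and 22701 in Control and 103676, 28236 and 27087 in Phase 1 and did not pass (adjusted p = 0.316). Without Phase 1 replicate 1 the list's median log2 difference went from 0.92 to 0.31, and 8 genes were higher. Outside the list and named after their values were seen, ARGAH2, an arginase, and ADC2, an arginine decarboxylase, had the same shape, with ARGAH2 at 4280, 5647 and 3606 in Control and 58960, 13217 and 12291 in Phase 1.

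Other lists varied by different amounts across the 3 libraries. The morning clock medians were 1.25, 1.22 and 1.36 in Phase 1 replicates 1, 2 and 3, and the evening ones -1.92, -1.80 and -2.39. Late anthocyanin medians were 5.48, 4.27 and 3.91, and all 10 genes were highest in replicate 1. Clade A phosphatase medians were 2.31, 2.02 and 1.69, with all 7 genes highest in replicate 1, and 1.86 over the list without that library. Iron genes followed another library, with medians of -0.37, 1.22 and -0.78 and 9 of 12 highest in replicate 2, and their overall median turned from 0.17 to -0.63 without it. Only the ferritin gene FER1 of that list passed, with 1046, 1553 and 1174 in Control and 13620, 3155 and 38604 in Phase 1 (adjusted p = 0.00475). The lowest Phase 1 value of FER1 was in the library where iron-deficiency genes such as PYE were highest, at 1055 against 221 and 194. PYE also varied among the Control libraries, at 583, 130 and 326. Of 17 salicylate genes 14 did not pass and 3 were lower, or 5 without Phase 1 replicate 2. Among all tested genes 18.6% were lower. PR1, a defence marker, read 11671, 804 and 816 in Control and 246, 329 and 60 in Phase 1 (log2 -3.53, adjusted p = 0.0227, or 0.0793 without Phase 1 replicate 3). Control replicate 1 was far above the other Control libraries for PR1, and for PR5 as well, at 29799 against 5494 and 4687.

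**Figure D5:**
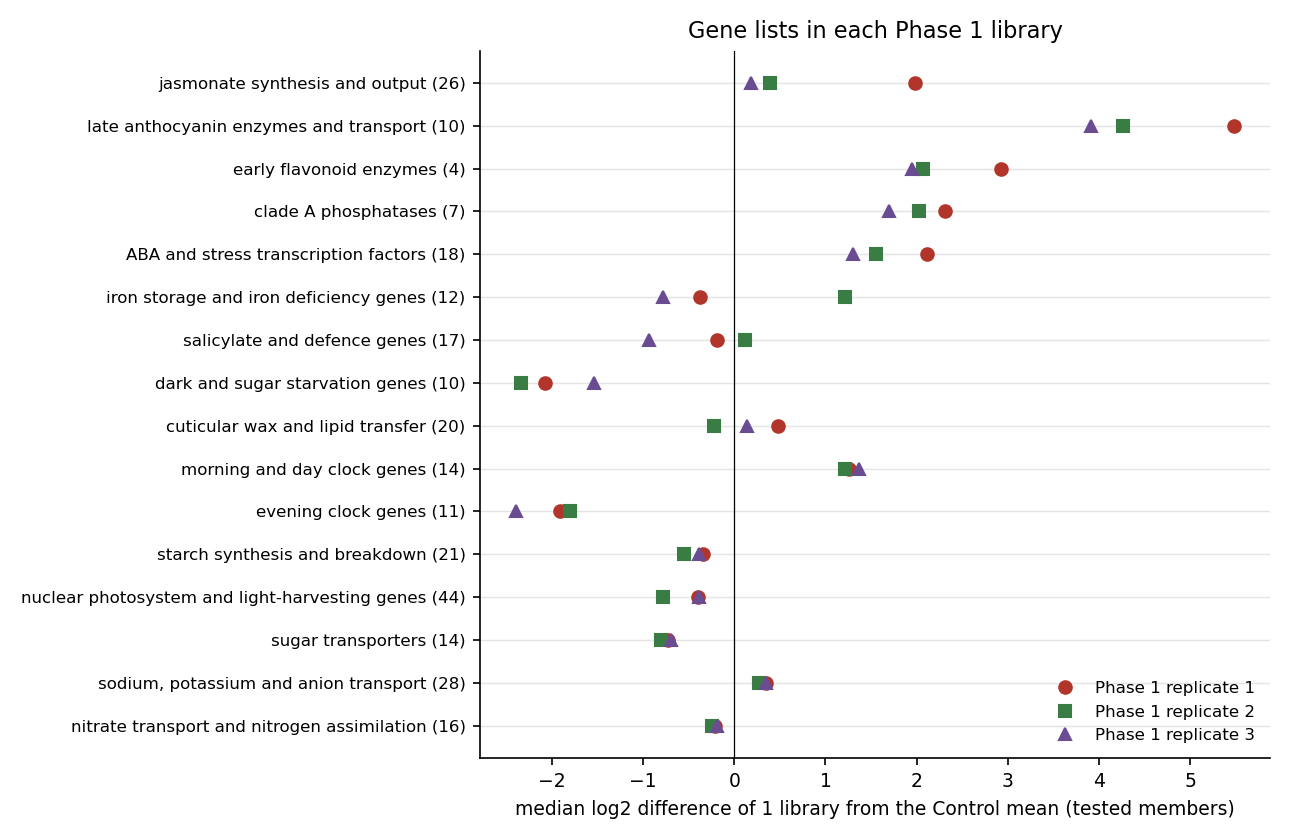
Median log2 difference of each Phase 1 library from the Control mean for 16 gene lists chosen after their values were seen; the 3 symbols of a row are the 3 replicates. The jasmonate row is spread from 0.18 to 1.98 and the iron row from -0.78 to 1.22, while the morning clock row lies between 1.22 and 1.36.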

How the data were processed

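RNA from rosette leaves was sequenced as 75 bp single-end reads from stranded libraries made with 4 µg of total RNA, per the labels' protocols. The deposited table holds 1 value per gene and library, treated as a score: the labels name it a table of normalised counts made by the authors, and all deposited values are whole numbers whose totals differ between libraries. Per the submitters' processing notes, STAR 2.4.0a, featureCounts 1.4.5-p1 of Subread, FastQC and DESeq2 were among the tools and TAIR10 was the build; for the role of each tool, the normalisation and any multi-mapping setting the sources used here say nothing. Rounding limits the precision of genes with a few counts, and no counting interval is given because the values are not raw counts.

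From these values, log2(value + 1) was fitted for 18650 genes with a mean of at least 10 using limma 3.58.1 in R 4.3.3 with an intensity trend, over 9 libraries in 3 groups, without blocks, and p-values were adjusted over all tested genes by Benjamini-Hochberg at 0.05. The fit was tested on simulated data. Symbols and promoters came from RefSeq TAIR10.1 by locus, with an entry for 21054 of 21176 loci and a symbol for 8853. Tables and figures used Python 3.11.15, pandas 2.3.3, numpy 2.4.6 and matplotlib 3.10.9.

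Genes named are the 14 largest rises and falls that have a symbol, do not overlap between groups and average 100 or more in the group where they are higher, the 8 largest rises and falls among genes with a mean of at least 5000, the top 4 passing members of each list, and any list member that did not pass; 196 passing genes fall under this rule, and other names are given as chosen after their values were seen. So were the exceptions named to complete a count (RVE7, ZTL, LHCB4.3, AFP2, PAL3, KAT1, SUC2, APL and TRY), and TOC1, COL2, SCPL10 and SGR1. The members and lists were chosen with earlier results of these data known.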

Additional observations from a re-analysis of the deposited data

How the results depend on the processing

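Of 6724 genes past the threshold, 3918 remained at an adjusted p under 0.01 (2236 of the 2746 with a log2 difference of at least 1). Pseudocounts of 0.5 and 5, no filter on low values, a mean of at least 50, quantile or trimmed-mean rescaling and limma without the trend gave 6211 to 6873 genes, the 2 groups fitted alone gave 5391, and higher genes made up 46.6% to 49.0% of the calls throughout. Leaving out 1 library at a time gave 4904 (without Phase 1 replicate 1) to 6735 genes (without Control replicate 1), and 2395 to 2835 with a log2 difference of at least 1. Without replicate 1 of both groups, an alternative added after seeing the data, 5318 genes passed. Same-numbered Control and Phase 1 libraries correlated in their deviations at 0.25, -0.12 and 0.16. Differently numbered pairs were not compared, so whether same-numbered libraries share more than a number was not tested. A replicate block gave 6261 genes, 6077 of them shared with the fit without it, and 2697 with a log2 difference of at least 1. Of the 196 named genes 173 passed under every alternative in which they were tested at 0.05, 23 were lost under at least 1 and 0 reversed, and 168 passed at 0.01. The cause of these losses was not tested. Depth limits genes with a few counts per library, whose values are rounded.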
